A study of Mus musculus with 12 samples.

Results

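The genes of oxidative phosphorylation were examined in chondrocytes from the superficial zone (SFZ) and the deep zone (DZ) of mouse articular cartilage. They were taken by symbol, as every gene of the table that begins with Nduf, Uqcr or Atp5, with Cox and a digit from 4 to 8, or that is Sdha, Sdhb, Sdhc or Sdhd. The rule found 92 of the 17536 genes. By role, 7 were core and 29 accessory subunits of complex I, 8 were assembly factors of complex I (Ndufaf1 to Ndufaf8), 4 were subunits of complex II, 8 of complex III, 19 of complex IV and 15 of complex V. The other 2 carry matching symbols without being subunits: Cox7a2l, a factor that joins complexes into supercomplexes, and Atp5s, a coupling factor. The rule does not take Cyc1, a subunit of complex III, or the small ATP synthase proteins that the table lists under older symbols. None of the 26 symbols of mitochondrially encoded subunits and RNAs that were looked up is in the table, so every value here belongs to a gene of the nucleus.

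Oxidative phosphorylation makes ATP in the inner mitochondrial membrane. Complexes I and II take electrons from NADH and succinate, complexes III and IV pass them on to oxygen while protons are pumped out, and complex V, the ATP synthase, uses the returning protons. Cartilage has no blood vessels, and its chondrocytes are known for a metabolism that leans on glycolysis. Some subunits of complexes IV and V exist as isoforms from separate genes, of which several belong mostly to heart and skeletal muscle, lung, testis or cells short of oxygen.

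The 12 libraries came from mice at 5 days of age, labelled C57BL/6 and described in the study as of a C57BL/6J background. There were 3 libraries in each of the groups R3-Cntl SFZ, R3-cKO SFZ, R3-Cntl DZ and R3-cKO DZ. All mice carried floxed Runx3 alleles (Runx3 fl/fl), and R3-cKO mice had in addition a Cre transgene driven by Col2a1, which is active in chondrocytes. The DZ cells were those that a longer collagenase digestion freed from the cartilage left after the SFZ cells had been taken, and cells were grown as a monolayer on fibronectin before use. Nothing in the labels states that the 3 libraries of a group came from separate cultures, although the study's legend counts individual mice, so the p-values measure the spread between libraries. Runx3, the targeted gene, measured 3.42 to 11.83 FPKM in SFZ and 7.66 to 15.95 FPKM in DZ libraries and was not lower in those labelled R3-cKO, so these are named by their labels below. Prg4, which the study reports as decreased in R3-cKO SFZ cells, was lower in the SFZ libraries so labelled. It measured 22.24, 8.38 and 7.13 FPKM for R3-Cntl SFZ and 6.95, 2.47 and 2.13 FPKM for R3-cKO-labelled SFZ libraries, without overlap. The log2 difference was -1.45 (limma unadjusted p = 0.0307) and did not pass after adjustment. In the DZ the groups overlapped (0.63, limma unadjusted p = 0.139). Libraries 2 and 3 labelled R3-cKO had at most 0.04 FPKM of the 4 Y-linked genes looked up in both zones, and the other libraries had 1.05 to 21.58 FPKM. Y-linked transcripts were thus unbalanced between the genotypes, and the part of sex in the genotype comparisons was not tested. All 11 chondrocyte markers tested, among them Col2a1 and Acan, were called higher in the DZ (4.3% of all genes were), and 10 with quantile normalization. The 10 superficial zone markers summed to 317 to 1693 FPKM in the SFZ and 16.29 to 95.11 FPKM in the DZ. The macrophage markers differed within the SFZ, with a summed level of 8.05 to 174.3 FPKM, against 3.93 to 24.55 FPKM in the DZ.

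The values are taken to be FPKM, the number of sequenced fragments scaled to transcript length and library depth, and levels are compared between genes on that reading. The libraries summed to 392241 to 429213 FPKM, and the oxidative phosphorylation genes held 1.82 to 2.18% of that. Most were abundant, with 0 of them among the 100 highest genes of the table, 24 among the highest 500 and 48 among the highest 1000. Complex V led, with a median over its genes of 150 FPKM (mean of 12 libraries per gene), followed by complex III with 106 FPKM and complex IV with 82.4 FPKM over its 19 genes. Over the 15 of them that reached 1 FPKM in at least 3 libraries the median of complex IV was 120 FPKM, above complex III. Complex II and the accessory and core subunits of complex I had medians of 67.6, 66.2 and 44.9 FPKM. The assembly factors of complex I, which act on the complex while it is built and are not part of it, were lower, at a median of 8.56 FPKM.

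Within each complex the order ran from a high subunit to a low one. In complex V the catalytic beta subunit Atp5b was the highest of all members, at 282.76 to 506.62 FPKM (mean 388.8), and Atp5k, a small membrane subunit, was the lowest at a mean of 74.5 FPKM. Cox6a1 led complex IV with a mean of 292.9 FPKM, Uqcrq led complex III with 214.4 FPKM, and the iron-sulfur subunit Sdhb led complex II with 91.2 FPKM. In complex III the lowest was Uqcrfs1, the Rieske iron-sulfur protein, at 37.8 FPKM. Complex I ran from Ndufb4 at 112.7 FPKM to Ndufa11 at 17.5 FPKM, and the lowest of its core subunits was Ndufs1 at 28.7 FPKM. Complex IV had by far the widest span, which came from its tissue-restricted isoforms: the 15 of its genes that passed the filter on low values (at least 1 FPKM in at least 3 libraries) spanned 110.9-fold, against 1.82- to 6.44-fold in complexes I, II, III and V.

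**Figure D1:**
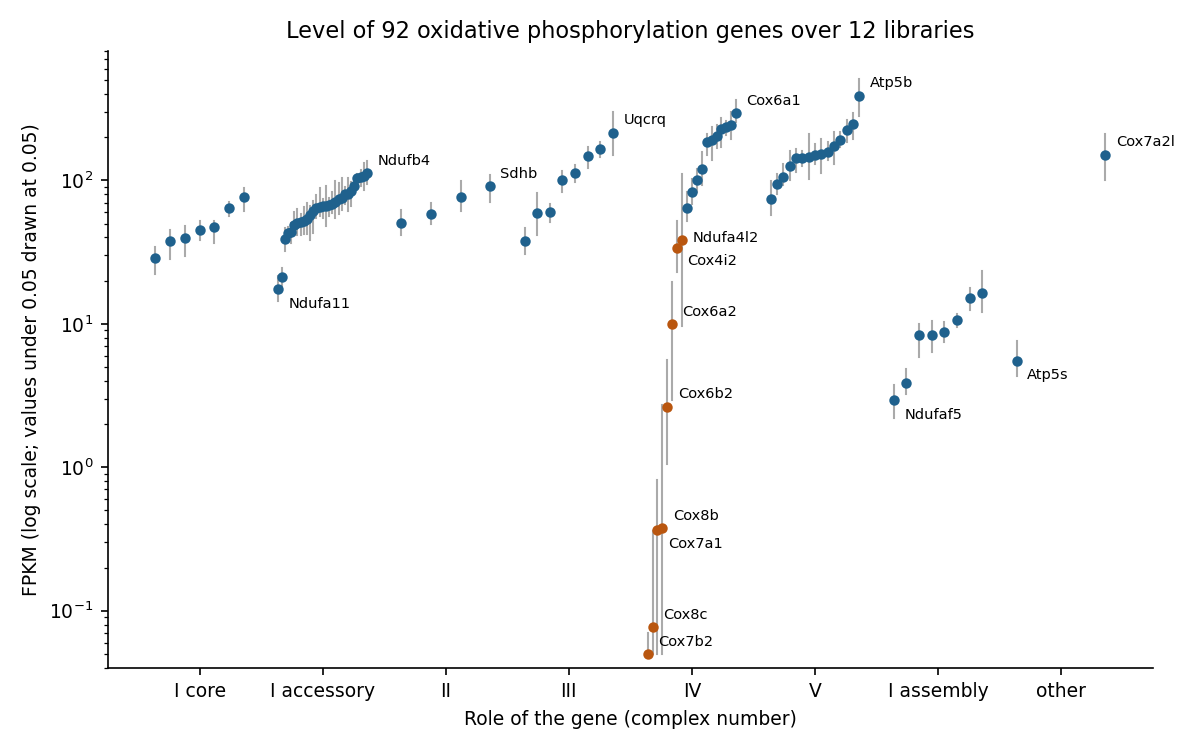
Level of each of the 92 genes in FPKM on a log axis, grouped by role. Points are means of 12 libraries, vertical lines run from the lowest to the highest library, and orange points are the isoforms known from particular tissues or from hypoxia, with values under 0.05 drawn at 0.05; their means run from 0.017 (Cox7b2) to 38.7 FPKM (Ndufa4l2), and the highest of all is Atp5b at 388.8.

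The filter was passed by 88 of the 92 genes in every comparison. The 4 that did not pass are isoforms of complex IV known from muscle and testis. Cox8b reached 2.72 FPKM in 1 library and at most 0.70 FPKM elsewhere, Cox7a1 reached 0.81, Cox8c 0.36 and Cox7b2 0.07 FPKM, and all of them were listed at 0 in at least 1 library. Depth is unknown for these values, so a listed 0 sets no limit on expression.

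The 3 genes Atp5g1, Atp5g2 and Atp5g3, on separate chromosomes, encode the same mature subunit c, the proton-carrying ring of the ATP synthase, behind different import sequences. Their coding ends are shown because reads of such copies are the ones that mapping could confuse. The lines give, 5′ to 3′, the last 228 coding bases (75 codons and the stop codon) of a GENCODE transcript of each gene (build NCBIM37, the same as mm9), and capitals mark the positions at which the 3 genes are not all alike.
Atp5g1, last 228 coding bases: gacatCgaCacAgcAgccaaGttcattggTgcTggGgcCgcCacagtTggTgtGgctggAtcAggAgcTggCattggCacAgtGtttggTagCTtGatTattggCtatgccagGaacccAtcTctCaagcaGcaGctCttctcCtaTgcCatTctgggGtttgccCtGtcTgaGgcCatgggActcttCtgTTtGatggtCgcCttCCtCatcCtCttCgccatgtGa
Atp5g2, last 228 coding bases: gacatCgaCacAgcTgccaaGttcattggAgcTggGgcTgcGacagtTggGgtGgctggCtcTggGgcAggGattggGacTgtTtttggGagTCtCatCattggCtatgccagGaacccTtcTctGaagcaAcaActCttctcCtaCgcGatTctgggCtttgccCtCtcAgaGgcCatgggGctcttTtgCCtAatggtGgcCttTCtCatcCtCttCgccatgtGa
Atp5g3, last 228 coding bases: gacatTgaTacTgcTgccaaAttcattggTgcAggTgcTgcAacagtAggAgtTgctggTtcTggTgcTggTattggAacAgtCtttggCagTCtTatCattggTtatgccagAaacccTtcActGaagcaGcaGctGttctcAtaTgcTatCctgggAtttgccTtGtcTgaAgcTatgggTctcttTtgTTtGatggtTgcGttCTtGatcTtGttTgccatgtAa
The genes differed at 58 of the 228 bases, spread over the whole stretch. Atp5g1 and Atp5g2 were 85.1% identical and shared a run of at most 21 bases, Atp5g1 and Atp5g3 were 79.8% identical, and Atp5g2 and Atp5g3 were 78.5% identical. The runs shared by any pair are shorter than the 100-bp reads. How reads that map to several places were treated is not given in the sources used here, and processed copies elsewhere in the genome were not searched.

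Atp5g2 was the main source of subunit c transcript in each library, with 45.6 ± 3.21% of the summed FPKM of the 3 genes (SD, n = 12), against 28.0 ± 3.96% for Atp5g3 and 26.3 ± 3.41% for Atp5g1. The share of Atp5g1 ranged from 22.4 to 33.5% and was highest in R3-Cntl DZ library 1 and in library 1 labelled R3-cKO DZ (32.3%). The ratio of Atp5g1 to Atp5g2 did not pass the exact permutation test between zones (p = 0.117, adjusted over 7 isoform pairs 0.409, n = 6 per zone), and neither did that of Atp5g3 to Atp5g2 (p = 0.275, adjusted 0.481).

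**Figure D2:**
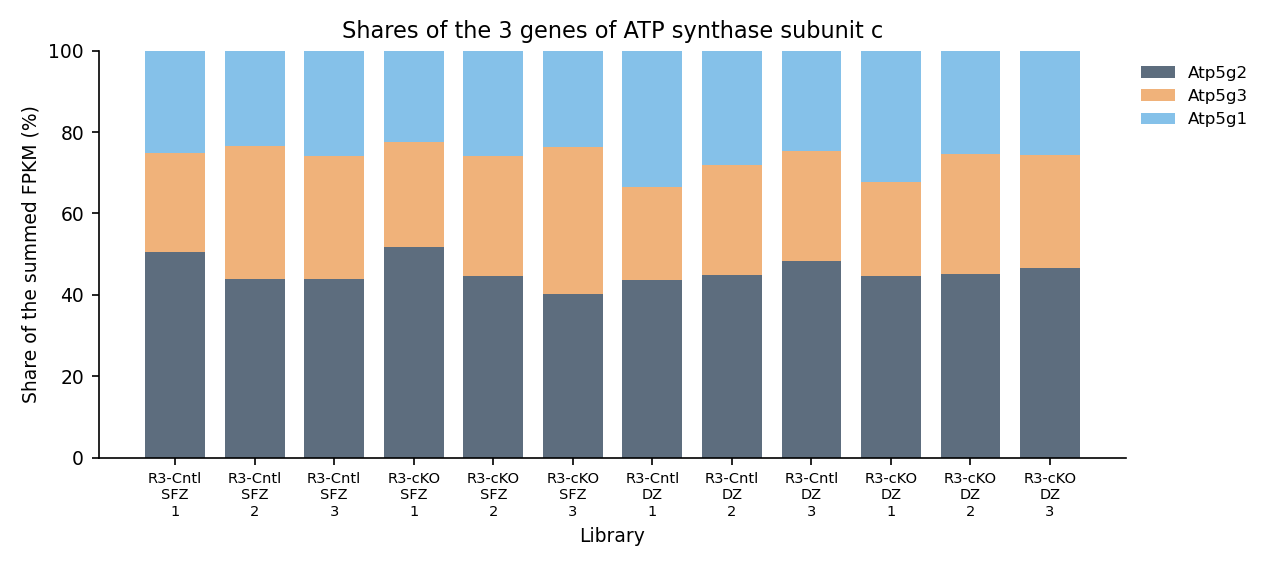
Share of Atp5g2, Atp5g3 and Atp5g1 in the summed FPKM of the 3 genes, in percent, for each of the 12 libraries. Atp5g2 is the largest part of every bar, between 40.2 and 51.8%.

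The promoters of 76 of the 92 genes were found by gene ID in RefSeq windows of 250 bases before to 50 bases after the transcript start (build GRCm38.p6, which is not the mm9 build of the expression data). NRF1, nuclear respiratory factor 1, is a transcription factor known for binding promoters of respiratory chain genes at a palindrome, the letters GCGCA followed at once by their reverse complement TGCGC. That palindrome, which reads alike on both strands, stood in the windows of 7 of the 76 genes (9.21%), against 1.07% of all 27025 genes with a window and 2.35% of the 9434 tested genes with one. With 1 base left free (GCGCA, any base, then GCGC, on either strand, which includes the palindrome) it stood in 19 (25%), against 5.19% and 11.9%. The letters CCGGAAG, a core of the sites of the factor GABPA, stood in 18 (23.7%) against 9.93% and 20.8%, and the hypoxia element letters ACGTG in 19 (25%) against 21.8% and 29.5%. A match of letters is a description of the sequence and was not tested for binding. The 3 promoters below, of an accessory subunit of complex I, of the main form of subunit 6A of complex IV and of the main subunit c gene, hold the palindrome before the start and are shown, 5′ to 3′ on the strand of the gene, because these genes recur in the results; capitals mark it.
Ndufa11, 200 bases before the start, chr17:56717562-56717761, forward strand: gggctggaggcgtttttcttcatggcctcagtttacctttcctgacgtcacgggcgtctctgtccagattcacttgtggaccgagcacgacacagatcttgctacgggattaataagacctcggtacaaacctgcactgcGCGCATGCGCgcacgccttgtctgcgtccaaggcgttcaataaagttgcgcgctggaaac
Cox6a1, 200 bases before the start, chr5:115348959-115349158, reverse strand: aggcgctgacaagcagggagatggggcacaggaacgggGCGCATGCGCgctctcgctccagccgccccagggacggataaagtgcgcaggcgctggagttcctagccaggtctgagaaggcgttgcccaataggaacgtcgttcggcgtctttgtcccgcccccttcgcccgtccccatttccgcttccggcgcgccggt
Atp5g2, 200 bases before the start, chr15:102671048-102671247, reverse strand: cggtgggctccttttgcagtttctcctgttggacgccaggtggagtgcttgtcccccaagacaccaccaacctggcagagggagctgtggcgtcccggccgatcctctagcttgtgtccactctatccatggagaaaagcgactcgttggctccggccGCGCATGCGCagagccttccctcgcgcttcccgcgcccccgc
It lies 60 to 51 bases before the start in Ndufa11, 162 to 153 in Cox6a1 and 42 to 33 in Atp5g2. Among the genes without a window by gene ID were Ndufa4l2, Cox4i1, Cox4i2, Cox6a2, Cox8c, Cox6c, Sdhc, Ndufs1, Ndufa2, Ndufb9, Ndufaf6, Uqcrb, Uqcrc2, Uqcrq and Atp5a1.

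The levels were steady from library to library. The coefficient of variation over the 12 libraries had a median of 11.8% for the 88 genes and of 19.5% for all 11765 genes tested, and 81 of the 88 (92%) kept within 2-fold from the lowest to the highest library, against 54.5% of all genes. Where the mean reached 10 FPKM the medians were 11.4% for 80 of these genes and 16.2% for 5925 genes of the table. The steadiest were Ndufa7, an accessory subunit of complex I, at 91.99 to 111.38 FPKM (5.62%), the assembly factor Ndufaf7 (6.21%) and Cox4i1, the common form of subunit 4 of complex IV (6.30%). The least steady were the isoforms Ndufa4l2 (86.4%, 11.4-fold from the lowest to the highest library), Cox6b2 (56.8%, 5.32-fold), Cox6a2 (46.5%, 6.74-fold) and Cox4i2 (29.2%, 2.27-fold). After them came Uqcrq (22.6%), Atp5g1 (22.0%) and Cox7a2l (21.3%).

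Part of the remaining variation was shared, which was not set against other genes. For each gene the log2(FPKM + 1) value was set against the median of the other 87 over the 12 libraries, and the correlation had a median of 0.583 and exceeded 0.5 for 53 genes. It was highest for complex V (median 0.805 over 15 genes) and the core of complex I (0.729 over 7), and lower for the accessory subunits of complex I (0.395 over 29). All points share the scaling of their library and keep the zone difference, so this is given without a test. It was below 0 for 10 genes, of which Ndufa4l2 (-0.605), Cox7a2l (-0.51) and the accessory subunits Ndufv3 (-0.438) and Ndufa6 (-0.411) were lowest.

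A pair of libraries stood apart. In library 2 labelled R3-cKO SFZ 76 of the 88 genes were above their own mean, by a median of 0.213 on the log2 scale, and all 15 genes of complex V were among them. In R3-Cntl DZ library 3 only 7 of the 88 were above it, and the median was -0.193. In the other 10 libraries the medians lay between -0.0723 and 0.0531. The medians of all genes tested in the 2 libraries were 0.0782 and -0.114. Library 2 labelled R3-cKO SFZ also had the highest summed level of pericyte and smooth muscle markers (743.4 FPKM, against 207.5 to 662 in the others). Most of that sum came from Acta2 (414.12 FPKM) and Tagln (189.96 FPKM). In the same library Rgs5, Abcc9 and Kcnj8 were at 0.22, 0.14 and 0.13 FPKM, and Pdgfrb, at 45.32 FPKM, was the lowest of the SFZ libraries. The part of these markers in the values of that library was not tested.

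**Figure D3:**
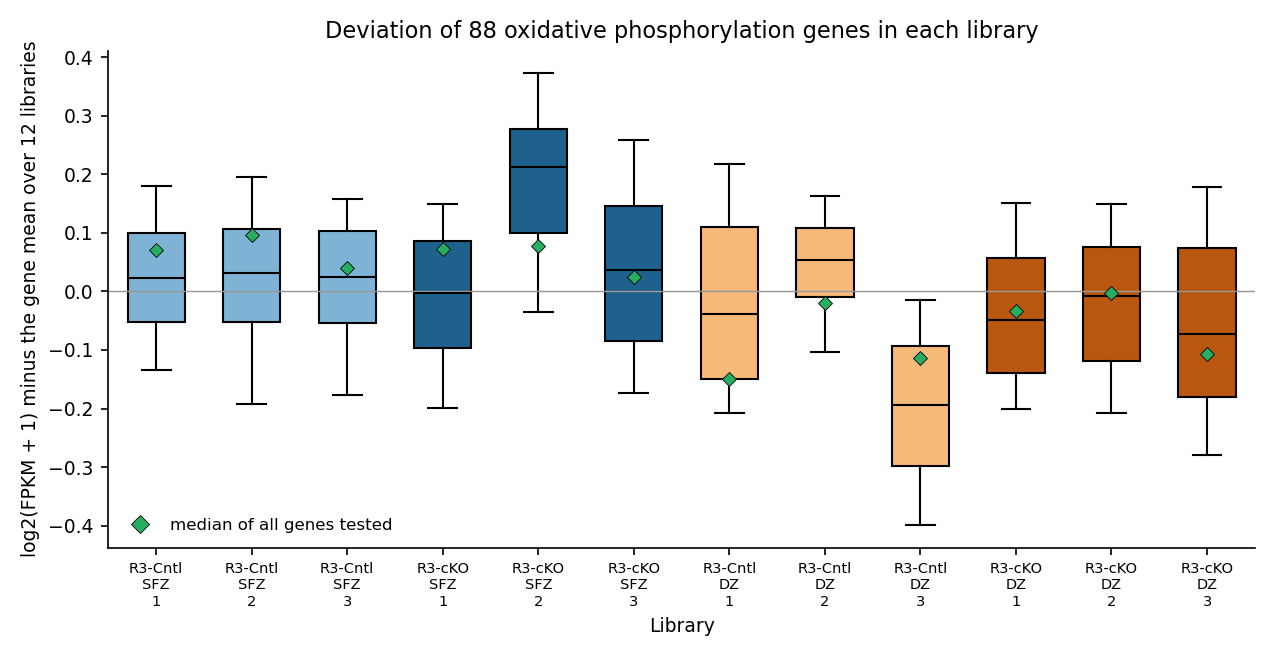
Deviation of log2(FPKM + 1) from the gene's mean over 12 libraries, for the 88 genes, in each library. Boxes span the middle of the genes from the lower to the upper quartile, lines inside them are medians, whiskers leave out the lowest 10% and the highest 10% of genes, and green diamonds are the medians of all genes tested; the box of library 2 labelled R3-cKO SFZ is highest (median 0.213) and that of R3-Cntl DZ library 3 lowest (-0.193).

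The first comparison asked whether respiratory chain genes differ between the zones. Over both genotypes, with 6 libraries per zone, 6 of the 88 genes were called at an adjusted p under 0.05 (limma, Benjamini-Hochberg over all genes tested), 1 higher and 5 lower in the DZ. The share of all 11765 genes called was 23.2%, with 4.30% higher and 18.9% lower. The count of 6 ranged from 2 to 9 when each library was left out. With libraries of the same genotype and number paired as a block, 0 were called higher and 12 lower (33.7% of all genes called). In R3-Cntl that pairing was not borne out, since the deviations of the same-numbered libraries had correlations of 0.575, 0.111 and -0.151. The values of all genes shifted with the zone: the median log2 difference, DZ minus SFZ, was -0.141 over all genes and -0.0939 over the 88, of which 18 were above 0 and 70 below (72% of all genes were below). That direction rests on the scaling of the libraries, since with median-of-ratios size factors 61 of the 88 were above 0 and 27 below (median 0.0669, all genes 0.00318), and with quantile normalization 42 were above and 46 below (median -0.0114). Relative to the median of all genes the 88 thus differed by less than 0.1 on the log2 scale under each of these scalings. In bulk RNA, fewer cells of a type and less RNA per cell cannot be told apart.

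By complex, the median difference between zones was -0.167 for complex II (4 genes), -0.160 for the core of complex I (7), -0.151 for complex V (15), -0.113 for complex IV (15), -0.102 for the assembly factors (8), -0.0473 for complex III (8) and -0.0384 for the accessory subunits of complex I (29), against -0.141 for all genes. With median-of-ratios size factors the medians lay between -0.00589 and 0.123, so that 5 of these 7 groups turned from below to above 0 and only complex II and the core of complex I stayed below it. With quantile normalization complexes II, IV and V and the core of complex I stayed below 0 (-0.0641, -0.0503, -0.0788 and -0.0601). The accessory subunits, the assembly factors and complex III turned above it (0.0535, 0.111 and 0.0356). As deposited, 2 of 4 genes of complex II and 1 of 8 assembly factors were called lower. So were 1 of 7 core and 1 of 29 accessory subunits of complex I, but 0 of 8 in complex III and 0 of 15 in complex V. At an unadjusted p under 0.05, 1 gene was higher and 16 lower (7.26 and 29.8% of all genes, 37.1% in either direction).

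**Figure D4:**
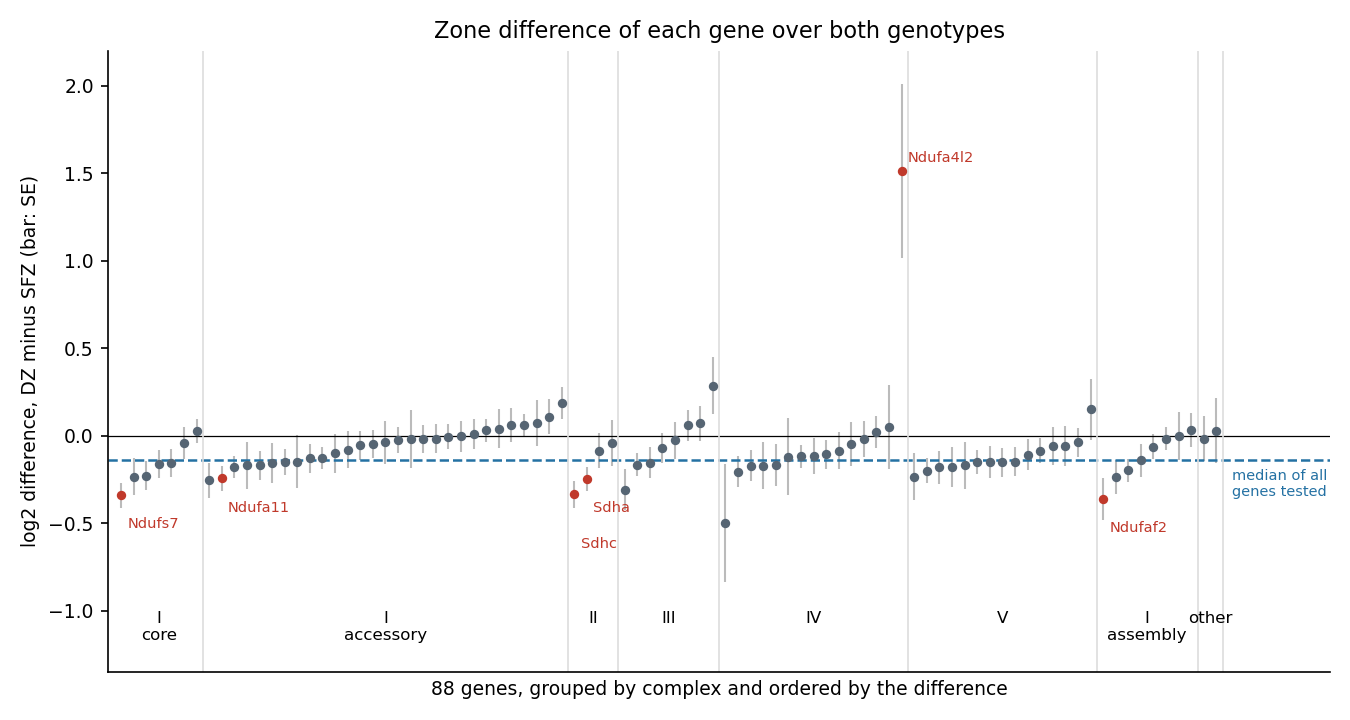
Log2 difference between DZ and SFZ for each of the 88 genes over both genotypes, grouped by role, with the limma standard error as bars. Red genes passed the adjusted p; Ndufa4l2 stands alone at 1.51 and the other points lie from -0.50 (Cox6a2) to 0.29, around the dashed median of all genes (-0.141).

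Ndufs7 and Sdhc were the only 2 of the 88 genes whose SFZ and DZ values did not overlap, both lower in the DZ (11.3% of all genes did not overlap, 1.64% higher and 9.71% lower). Ndufs7 (Entrez gene 75406, chr10:79711866-79719539 of mm9) encodes a core iron-sulfur subunit of complex I. It measured 40.55, 47.10 and 42.19 FPKM for R3-Cntl SFZ and 44.71, 47.98 and 44.76 FPKM for R3-cKO-labelled SFZ libraries. DZ levels were 35.36, 36.15 and 29.66 FPKM for R3-Cntl and 37.10, 38.82 and 33.26 FPKM for R3-cKO-labelled libraries. Every DZ value was below every SFZ value, with a mean of 35.1 ± 3.22 against 44.5 ± 2.83 FPKM (SD, 6 libraries each). The log2 difference was -0.34 (standard error 0.07, limma adjusted p = 0.00784), and within each genotype it was -0.35 (R3-Cntl, limma adjusted p = 0.135) and -0.33 (R3-cKO, 0.278), with no overlap in either.

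Sdhc (Entrez gene 66052, chr1:173057296-173080734) anchors complex II in the membrane. It measured 75.81, 87.38 and 83.91 FPKM for R3-Cntl SFZ, 74.48, 96.41 and 98.40 FPKM for R3-cKO-labelled SFZ libraries, 61.21, 67.11 and 66.23 FPKM for R3-Cntl DZ and 68.95, 72.31 and 70.65 FPKM for R3-cKO-labelled DZ libraries. The highest DZ value lay just under the lowest SFZ value, and the log2 difference was -0.33 (standard error 0.08, limma adjusted p = 0.0122). Sdha, the succinate-oxidising flavoprotein of the same complex, fell by 0.25 on the log2 scale (limma adjusted p = 0.0221), from 63.4 ± 4.36 to 53.3 ± 3.59 FPKM (SD, n = 6). Its partners Sdhb and Sdhd had differences of -0.04 and -0.09 (limma adjusted p = 0.843 and 0.562). The calls of Sdhc and Sdha were lost with median-of-ratios size factors (limma adjusted p = 0.172 and 0.38), where Sdhc, Sdha and Ndufs7 stayed below 0; that of Ndufs7 was lost too (0.0825). That of Sdha was lost with quantile normalization as well (range over all alternatives 0.0175 to 0.38), and Sdhb and Sdhd lay above 0 under both other scalings.

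The other 2 genes called lower were Ndufa11 and Ndufaf2. Ndufa11, an accessory subunit in the membrane arm of complex I whose promoter is shown above, fell from 19.0 ± 1.43 to 15.9 ± 1.38 FPKM (log2 difference -0.24, limma adjusted p = 0.0277, n = 6 each). Ndufaf2, an assembly factor of complex I, fell from 18.7 ± 3.27 to 14.3 ± 1.99 FPKM (-0.36, limma adjusted p = 0.0492). For both the zones overlapped by a few libraries, and neither call held under either other scaling. The call of Ndufa11 was also lost when library 2 of R3-Cntl SFZ or of R3-Cntl DZ, library 3 labelled R3-cKO SFZ or library 1 labelled R3-cKO DZ was left out (limma adjusted p up to 0.0657), that of Sdha without R3-Cntl SFZ library 2 or library 3 labelled R3-cKO DZ (up to 0.0618), and that of Ndufaf2 without any 1 of 8 libraries (up to 0.108).

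As deposited, Ndufa4l2 was the only gene of the 88 called higher in the DZ, and the one with the widest range. Ndufs5 was also called higher with quantile normalization (log2 difference 0.265, limma adjusted p = 0.0375) and with median-of-ratios size factors (0.35, 0.0197). Ndufa4l2 (Entrez gene 407790, chr10:126951995-126954208) is a paralogue of the complex IV subunit Ndufa4 and is known as a target of the hypoxia-inducible factor HIF1 that lowers respiration. It measured 30.74, 9.60 and 10.62 FPKM for R3-Cntl SFZ and 31.13, 16.88 and 10.50 FPKM for R3-cKO-labelled SFZ libraries. DZ levels were 65.25, 47.59 and 90.50 FPKM for R3-Cntl and 27.02, 14.32 and 109.80 FPKM for R3-cKO-labelled libraries. In R3-Cntl every DZ value was above every SFZ value, while DZ libraries 1 and 2 labelled R3-cKO lay within the SFZ range.

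The log2 difference of Ndufa4l2 was 1.51 (standard error 0.50, limma adjusted p = 0.0477) over both genotypes, 2.08 (standard error 0.45, adjusted p = 0.0656) in R3-Cntl and 0.95 (standard error 0.76, adjusted p = 0.641) in R3-cKO. The difference between the genotypes in this zone effect was -1.13 (standard error 0.98, adjusted p = 0.999), so it was not shown to differ. Each scaling kept the call over both genotypes, but leaving out single libraries gave adjusted p-values from 0.0141 to 0.113. The call stood only when the library left out was R3-Cntl SFZ 1 or the one labelled R3-cKO SFZ 1 or R3-cKO DZ 2, and it was lost without any 1 of the other 9, with either other filter on low values and with the replicate block. Ndufa4 itself, the paralogue built into complex IV in most tissues, was at 203 ± 20.5 FPKM in the SFZ and 182 ± 35.6 FPKM in the DZ (SD, n = 6). Ndufa4l2 made up 4.49 to 15.1% of the summed FPKM of both genes in the SFZ and 6.59 to 43.8% in the DZ. The zone difference in the log2 ratio of the 2 genes within a library was 1.69 and did not pass after adjustment (exact two-sided permutation p = 0.0325, adjusted over 7 pairs 0.227, n = 6 each).

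**Figure D5:**
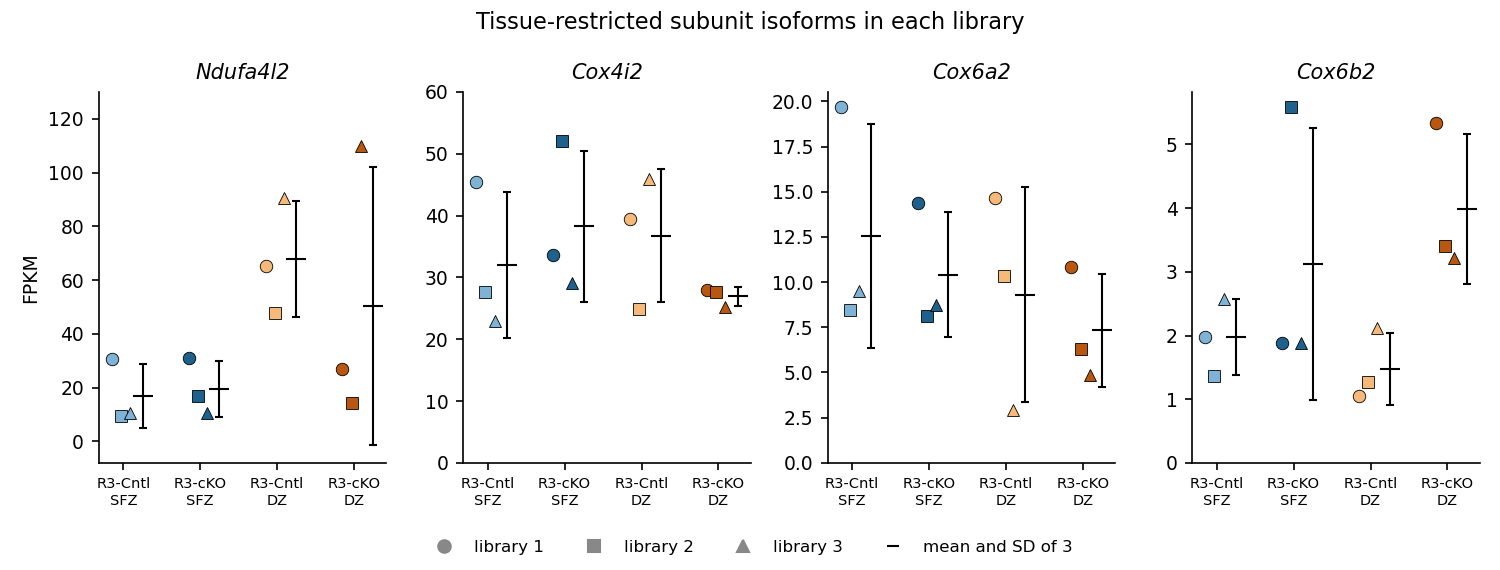
FPKM of Ndufa4l2, Cox4i2, Cox6a2 and Cox6b2 in each library by group, on linear axes. Symbols are libraries 1, 2 and 3, and the dash with its bar is the mean and SD of 3; Ndufa4l2 reaches 47.59 to 90.50 in R3-Cntl DZ against 9.60 to 30.74 in R3-Cntl SFZ, and Cox6a2 is highest in library 1 of each group.

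The remaining isoforms of complex IV showed other patterns, none of which passed a test between zones. Cox4i2, the form of subunit 4 known from lung and from cells short of oxygen, was present in each library. It measured 45.43, 27.63 and 23.00 FPKM for R3-Cntl SFZ, 33.66, 52.14 and 29.03 for R3-cKO-labelled SFZ libraries, 39.39, 24.92 and 45.92 in R3-Cntl DZ and 28.01, 27.64 and 25.21 for R3-cKO-labelled DZ libraries. The zones overlapped in R3-Cntl, while in R3-cKO every SFZ value was above every DZ value, the lowest and highest being 29.03 and 28.01 FPKM (16.8% of all genes were lower in the DZ without overlap there). The difference between the genotypes in this zone effect was -0.66 (standard error 0.41, limma adjusted p = 0.999), so it was not shown to differ. The gene made up 8.89 to 17.8% of the sum with the common form Cox4i1, which stayed at 207.61 to 260.83 FPKM. The ratio of the pair did not pass the exact permutation test between zones (difference -0.0026, p = 0.985, n = 6 each).

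Cox6a2, the heart and skeletal muscle form of subunit 6A, measured 19.68, 8.47 and 9.52 FPKM for R3-Cntl SFZ, 14.38, 8.10 and 8.76 for R3-cKO-labelled SFZ libraries, 14.68, 10.32 and 2.92 in R3-Cntl DZ and 10.82, 6.29 and 4.86 for R3-cKO-labelled DZ libraries. Library 1 was the highest of each group, and the gene made up 1.13 to 6.90% of the sum with Cox6a1. Of 20 skeletal muscle markers 4 passed the filter and 6 were under 1 FPKM in all libraries. Their summed level was 182.1 FPKM for R3-Cntl SFZ library 2, where Cox6a2 was at 8.47, and 6.79 to 22.61 FPKM in the other 11. The muscle isoforms of subunits 7A and 8, Cox7a1 and Cox8b, were at 0.70 and 0.31 FPKM in that library. The zone difference in the log2 ratio of Cox6a2 to Cox6a1 was -0.52 and did not pass (exact permutation p = 0.21, adjusted 0.481, n = 6 each).

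Cox7a2l shares much of its sequence with the subunit 7A genes. It was at 101.16 to 211.54 FPKM, 52.2 to 73.7% of the sum with Cox7a2, which was at 68.29 to 101.35 FPKM. In all 12 libraries Cox7a2l was the higher of the pair, and the zone difference in their ratio was 0.045 (exact permutation p = 0.848, n = 6 each).

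Within single genotypes fewer calls were possible with 3 libraries per zone. In R3-Cntl 0 of the 88 genes were called between zones (1.24% of 11336 genes), and 1 higher and 4 lower had an unadjusted p under 0.05 (4.94 and 22.4% of all genes, 27.4% together). The median difference was -0.0926, with 60 of the 88 below 0 (72% of all genes). With median-of-ratios size factors 63 were above 0 and 25 below (median 0.103), and with quantile normalization 48 and 40 (0.029). Without R3-Cntl DZ library 3 these counts were 43 and 45 (median -0.0185). As deposited, all DZ values were above all SFZ values for 1 gene, Ndufa4l2, and below them for 12 genes (5.96 and 26.5% of all genes, 32.4% together). In R3-cKO 0 genes were called (0.0176%), and 1 gene, Ndufs7, was lower at an unadjusted p under 0.05 (3.03% of all genes higher and 11.1% lower, 14.1% together). The median difference was -0.116, with 74 of the 88 below 0 (65.4% of all genes). With median-of-ratios size factors 49 were above 0 and 39 below (median 0.0164), and with quantile normalization 32 and 56 (-0.0505). Without library 2 labelled R3-cKO SFZ these counts were 31 and 57 (median -0.0519). In R3-cKO as deposited 1 gene was higher without overlap, Uqcrq, a small subunit of complex III, and 15 were lower (4.24 and 16.8% of all genes, 21% together). In all, 6 genes were lower without overlap in both genotypes, and they were Ndufs7, Ndufa11, Sdhc, Sdha, Uqcrb and Cox4i1 (11.8% of the 11198 genes tested in both). Libraries of the same number deviated together in R3-cKO mice, with correlations of 0.418 to 0.781, and with the number as a block 1 gene was higher and 13 lower at an unadjusted p under 0.05 (30% of all genes in either direction under that block), again with 0 called (3.11% of all genes).

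The second comparison asked whether the libraries labelled R3-cKO differ from R3-Cntl. These groups also differed in Y-linked transcripts, as given above. In the SFZ 0 of the 88 genes were called, as were 0 of all 11537 genes (limma), and 0 had an unadjusted p under 0.05 (0.295% of all genes, 0.182% higher and 0.113% lower). For 4 genes the values did not overlap, and Ndufc1, Ndufa11, Cox4i1 and Atp5j were all higher (2.4% of all genes, 1.45% higher and 0.953% lower). The median log2 difference, R3-cKO minus R3-Cntl, was 0.042, with 64 genes above 0 and 24 below, against -0.00753 for all genes (52.5% below 0). The lowest unadjusted p was that of Ndufaf3, an assembly factor of complex I, at 8.23, 7.45 and 6.39 FPKM for R3-Cntl and 10.42, 8.10 and 9.27 FPKM for R3-cKO-labelled libraries (log2 difference 0.30, standard error 0.14, limma adjusted p = 1). Its ranges overlapped. Without library 2 labelled R3-cKO, the one in which 76 genes were above their mean, the median over the 88 was -0.00971, against -0.0103 for all genes, and 3 genes had an unadjusted p under 0.05, where 10.5% of all 11436 genes tested did.

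In the DZ 0 of the 88 genes were called, as were 0 of all 11091 genes (limma), and at an unadjusted p under 0.05 there were 2, with 1 in each direction (3.64% of all genes, 2.5% higher and 1.15% lower). For 4 genes the values did not overlap, with Ndufb2, Sdhc and Cox6b2 higher and Atp5s lower (8.03% of all genes, 5.26% higher and 2.78% lower). The median log2 difference was 0.0135, against 0.0468 for all genes (37.7% below 0), and 50 genes were above 0 and 38 below. With median-of-ratios size factors these were 37 and 51. They were 33 and 55 without R3-Cntl DZ library 3 (median -0.0537) and 64 and 24 without R3-Cntl DZ library 2 (0.0792). Libraries of the same number deviated together here (correlations 0.653, 0.781 and 0.687), and with the number as a block 3 genes were higher and 1 lower at an unadjusted p under 0.05 (16.5% of all genes in either direction under that block), with 0 called, as were 0 of all genes.

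The 2 genes with an unadjusted p under 0.05 were Cox6b2 and Atp5s. Cox6b2 (Entrez gene 333182, chr7:4703396-4704696), the testis form of subunit 6B of complex IV, measured 1.05, 1.27 and 2.12 FPKM for R3-Cntl DZ and 5.34, 3.40 and 3.22 FPKM for R3-cKO-labelled libraries, without overlap. The log2 difference was 1.01 (standard error 0.23, limma unadjusted p = 0.004, adjusted p = 0.999). In the SFZ it was at 1.98, 1.37 and 2.57 FPKM for R3-Cntl and 1.89, 5.59 and 1.89 FPKM for R3-cKO-labelled libraries, where only library 2 stood above the R3-Cntl range. The common form Cox6b1 was at 167.86 to 243.62 FPKM, so that Cox6b2 made up 0.585 to 2.68% of the pair. The log2 ratio of the pair differed by 0.89 between DZ groups, and 3 libraries against 3 allow no smaller value in the exact two-sided permutation test (p = 0.1, adjusted over 7 pairs 0.7).

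Atp5s was at 6.45, 5.90 and 6.32 FPKM for R3-Cntl DZ and at 5.59, 4.35 and 4.33 FPKM for R3-cKO-labelled DZ libraries, without overlap (log2 difference -0.33, standard error 0.13, limma unadjusted p = 0.0398, adjusted p = 0.999). In the SFZ it was at 6.35, 4.66 and 4.68 FPKM for R3-Cntl and 7.62, 4.99 and 5.20 FPKM for R3-cKO-labelled libraries, and the groups overlapped. The difference of the genotype effect between zones was lowest in p for this gene (-0.48, standard error 0.23, limma unadjusted p = 0.0642, adjusted p = 0.999). Across the 88 genes 0 interactions were called and 0 had an unadjusted p under 0.05 (0.841% of all genes, 0.663% above 0 and 0.178% below), with 51 of the 88 below 0 (40.8% of all genes). The number below 0 was 37 without R3-Cntl DZ library 2, 67 without R3-Cntl DZ library 3 and 64 with median-of-ratios size factors.

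The processes around the respiratory chain were described by lists of genes of known function, with the zone over both genotypes (limma) and the background of 23.2% called. Of 22 genes known as HIF targets, 18 had a difference above 0 and 4 below, the lowest at -1.06, with a median of 0.41. In the DZ 12 were called higher and 0 lower (4.30 and 18.9% of all genes), and 13 higher under either other scaling. The 3 largest called differences are given here. Bnip3, which marks mitochondria for removal, rose by 1.49 (limma adjusted p = 0.00332), the glucose transporter Slc2a1 by 1.08 (0.0121) and the glycolytic enzyme Pfkl by 1.06 (0.00511). Bnip3 measured 29.34 to 77.09 FPKM in the SFZ and 74.20 to 202.53 FPKM in the DZ, with a slight overlap. The median of the HIF targets was 0.586 in R3-Cntl alone, with 2 of 22 called higher (1.24% of all genes were called there), and 0.275 in R3-cKO alone, with 0 of 21 called (0.0176%). The zone effect was not shown to differ between the genotypes, with 0 of the 22 genes called and 0 at an unadjusted p under 0.05 in the test of that difference (limma; 0 and 0.841% of all genes) and a median difference of -0.168.

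Of 16 genes of pyruvate dehydrogenase and of the citric acid cycle, which supplies NADH and succinate, 3 were called lower and 0 higher. They were Pdha1, a subunit of pyruvate dehydrogenase (-0.48, limma adjusted p = 0.0115), and the cycle enzymes Sucla2 (-0.32, 0.0341) and Idh3b (-0.29, 0.0125). Under either other scaling 1 gene of the list was called higher and 1 lower. Pdha1 kept its call, and those of Sucla2 and Idh3b were lost. Of 38 assembly factors outside the symbol rule, 2 were called higher and 4 lower, among the latter Cox20, Atpaf1 and Acad9 (-0.39, -0.28 and -0.27, limma adjusted p = 0.0112, 0.0222 and 0.0357), and these 3 calls were lost under both other scalings. The direction of this list turned with the scaling, from a median of -0.0508 to 0.136 with quantile normalization (5 called higher, 0 lower) and 0.1 with median-of-ratios size factors (4 called higher, 0 lower). Of 14 genes of cytochrome c and coenzyme Q synthesis 1 was called, Pdss2, which rose by 0.58 (limma adjusted p = 0.00462).

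Of 20 mitochondrial biogenesis factors, 2 were called lower and 0 higher, with a median of -0.0941. Under either other scaling 2 were called higher and 1 lower, with medians of 0.0965 (quantile) and 0.0443 (median-of-ratios). Ppargc1a, the coactivator PGC-1alpha known for driving mitochondrial biogenesis, is counted among those called lower. It was at 1.13 to 7.22 FPKM in the SFZ and 0.02 to 0.50 FPKM in the DZ. Since every DZ value was under 1 FPKM, it passed the filter only through the SFZ, and its levels are given as a description. Gabpa, whose binding letters were counted above, was at 15.46 to 18.93 FPKM in the SFZ and 10.95 to 15.29 FPKM in the DZ (-0.34, limma adjusted p = 0.0183), a call that was lost under both other scalings. Nrf1 was at 6.26 to 10.43 and 5.68 to 8.08 FPKM and Tfam at 6.62 to 7.78 and 6.02 to 8.33 FPKM, and neither passed the test (limma adjusted p = 0.173 and 0.991). Of 10 genes of uncoupling and ADP/ATP exchange 2 were called, both lower. Ucp2, an uncoupling protein also known from macrophages, was at 5.88 to 11.8 FPKM in the SFZ and 1.13 to 4.13 FPKM in the DZ (-1.58, limma adjusted p = 0.00102), without overlap. All 9 macrophage markers tested were called lower too (2 with quantile normalization and 6 with median-of-ratios size factors), but 4 of them were under 1 FPKM in every DZ library and passed the filter only through the SFZ. Ucp2 measured 10.67, 10.97 and 5.88 FPKM for R3-Cntl SFZ and 11.8, 9.05 and 6.21 FPKM for R3-cKO-labelled SFZ libraries, in which the markers summed to 174.3, 147.8 and 8.05 FPKM and to 147.0, 15.56 and 70.31 FPKM. The 3 libraries with the highest sums had the 3 highest values of Ucp2, and the part of these markers in the zone difference was not tested. Atpif1, an inhibitor of the ATP synthase, fell by 0.40 (0.0176), and its call was lost under both other scalings.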

How the data were processed

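Per the labels, SFZ and DZ chondrocytes of R3-Cntl and R3-cKO mice were sequenced, with 3 libraries per group. The authors produced 100-bp paired-end reads, and the submitters' processing notes name Bowtie 0.12.2 and the build mm9. The deposited values are taken to be FPKM. The table is labelled as TMM-scaled, whereas the study's methods name log2 CPM (counts scaled to library size) after quantile normalization, and no source used here states the unit. The values are not on a log scale, and the unit was inferred from the decimals, the library sums and the fall of the smallest values with transcript length (Spearman rho -0.717 over 3475 genes). Depth is unknown, so errors rest on how the libraries of a group vary. 0 columns were left unmapped. The log2(FPKM + 1) values were fitted unscaled in R 4.3.3 with limma 3.58.1 (trend, empirical Bayes) for genes that reached 1 FPKM in 3 or more libraries of the fit, with Benjamini-Hochberg adjustment at 0.05. The fit was tested on simulated data. Isoform pairs were compared by exact permutation tests of log2((isoform + 1)/(common form + 1)) in Python 3.11.15. Motifs were counted in RefSeq promoter windows. Gene positions come from GENCODE on mm9.

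The members and lists were chosen with earlier results of these data known. Named genes are the isoform pairs, the members that are no subunits, the highest and lowest of each complex, the members with the largest called changes without overlap (or, where fewer than 3 passed, the lowest p) and at most the 3 largest called genes of each pathway list. Ndufa7, Ndufs5, Nrf1, Tfam, the single pericyte and smooth muscle markers and the genes listed only for overlap were chosen after their values were seen. Same-numbered libraries were checked for pairing over 11359 genes by the correlation of their deviations from group means, which passed 0.1 for each number in the DZ and in R3-cKO mice alone. The alternatives were median-of-ratios size factors, quantile normalization, a replicate block, no filter, a filter on the mean (10 FPKM), other pseudocounts (0.1 and 5), 1 model of all 12 libraries and each library left out. The values of 1 gene are not reported here.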

Additional observations from a re-analysis of the deposited data

How the results depend on the processing

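The count of 6 genes called between zones over both genotypes became 4 with quantile normalization (2 higher and 2 lower), 2 with median-of-ratios size factors and 12 with the replicate block, in which libraries of the same genotype and number were paired. The shares of all genes called there were 17.9, 18.1 and 33.7%. The count ranged from 2 to 9 when each library was left out. It was 2 without R3-Cntl SFZ library 2 and 3 without library 1 or 3 labelled R3-cKO DZ. With median-of-ratios size factors the called genes were Ndufa4l2 and Ndufs5 (log2 difference 0.35, adjusted p = 0.0197), both higher. The cause of these changes was not tested, but the scaling moved the median of all genes from -0.141 to 0.00318. In R3-Cntl the count of 0 became 1 with the replicate block (Ndufa4l2), and ranged from 0 to 1 with each library left out (1 without R3-Cntl SFZ library 1). The correlations of same-numbered libraries were 0.575, 0.111 and -0.151 between zones in R3-Cntl and 0.787, -0.0944 and -0.415 between genotypes in the SFZ. Libraries of different numbers reached 0.58 and 0.688 there. The numbers were therefore not taken to pair these libraries in the main results. The replicate block still paired them by number, so its counts over both genotypes, in R3-Cntl and in the SFZ rest on a pairing that was not borne out. Counts between genotypes and of the interaction stayed at 0 under every alternative run, and so did those of the isoform ratios. For the isoform ratios between genotypes that was fixed by the design. With 3 libraries against 3 the exact permutation test cannot go below p = 0.1, and leaving out or pairing libraries allows no lower value. Over all alternatives 634 values of single genes or ratios that the text reports kept their direction and side of the threshold, 68 lost the call, 2 gained it and 23 changed sign. Those that changed sign were not called. With quantile normalization and median-of-ratios size factors the zone difference was 0.0348 and 0.12 for Sdhb and 0.0196 and 0.0744 for Sdhd. The ratio of Cox4i2 to Cox4i1 was 0.00678 with a pseudocount of 5. With each library left out it ranged from -0.131 to 0.124, that of Cox7a2l to Cox7a2 from -0.0946 to 0.184, Sdhb from -0.107 to 0.032 and Tfam from -0.0379 to 0.0436. Named genes and ratios that the text gives no difference for changed sign in 169 further values. No depth is known, so no limit of detection can be given.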
